A study of Mus musculus with 2 samples.

Results

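The nuclear genes for the subunits of oxidative phosphorylation were taken by symbol from the deposited gene list, as Nduf subunits of complex I, Uqcr subunits of complex III, Cox subunits of complex IV and Atp5 subunits of complex V, without pseudogenes and without assembly factors. This gave 78 of the 32285 genes listed, with 37 for complex I, 8 for complex III, 16 for complex IV and 17 for complex V, and 76 of the 78 had at least 1 UMI (unique molecular identifier, 1 count per captured RNA molecule) in the cells described here. The study profiled single cells of tumours that MC38 cells, a mouse colon carcinoma line, formed in C57BL/6 mice. There were 2 groups with 1 library each, MC38-RSPO3-OE, in which the cells overexpress RSPO3 (R-spondin 3, a secreted protein that potentiates Wnt signalling), and MC38-Ctrl. The labels call the tissue a xenograft, although line and host are both mouse. The number and age of the mice, the implantation site, the harvest time and the making of the overexpressing line are not stated in the labels.

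Oxidative phosphorylation passes electrons from NADH and succinate along the complexes of the inner mitochondrial membrane to oxygen, and complex V uses the proton gradient that complexes I, III and IV build up to make ATP. Most subunits are encoded in the nucleus, made in the cytosol and imported, while a small set of core subunits is encoded in mitochondrial DNA (the mt- genes), so each of the 4 complexes is assembled from the products of both genomes. Complex II is fully nuclear and its genes are not members. Many tumour cells make much of their ATP by glycolysis and still keep an active respiratory chain, and activated macrophages and T cells shift between both.

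The symbol rule leaves out Cox4i1, Cox4i2, Ndufab1, Cyc1 and Ndufb1-ps, which also belong to these complexes or are named for them. It places Ndufa4 with complex I by its name, although its protein is now assigned to complex IV, and it keeps Cox7a2l, a supercomplex factor. All 78 symbols were found in the mouse GENCODE vM21 annotation as protein-coding genes. Several subunit genes have near-identical pseudogene copies, so their UMI counts are uncertain to the extent that reads could not be placed.

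Of cell barcodes there were 7314 from the RSPO3-OE tumour (155615189 UMIs) and 7301 from the Ctrl tumour (143881763 UMIs), and 7 barcodes occurred in both. Cells with at least 200 genes, at most 20% mitochondrial UMIs and no doublet call were kept, 6993 and 6895 of them. Tumour cells were those with no Ptprc UMI and at least 1 Hmga2 UMI, 4202 in RSPO3-OE and 4316 in Ctrl. Macrophages had at least 20 UMIs of C1qa, C1qb and C1qc together, 1181 in RSPO3-OE and 1164 in Ctrl. T cells had at least 2 UMIs of Cd3d, Cd3e and Cd3g together, 406 in RSPO3-OE and 203 in Ctrl. Cells that met 2 rules, 35 in RSPO3-OE and 12 in Ctrl, were left out. Median depth in RSPO3-OE and Ctrl was 25394 and 21438 UMIs in tumour cells, 11862 and 12645 in macrophages, and 6771 and 7087 in T cells.

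Marker genes were read in each class. The lists include Hmga2, C1qa, C1qb and C1qc, which set the classes, so part of the contrast between classes was fixed by the rules. The tumour list also includes Rspo3. The 6 tumour markers summed to 1172 CPM in RSPO3-OE tumour cells, against 555 CPM in Ctrl tumour cells, with Krt8, an epithelial keratin, at 540 and 87.1 CPM. The 10 macrophage markers summed to 79.8 counts per 1000000 UMIs (CPM) in RSPO3-OE tumour cells and 87.6 CPM in Ctrl tumour cells, against 39220 and 49199 CPM in the macrophages of the same libraries. Y-linked genes of the host were near 0 in tumour cells, at 0.364 CPM in RSPO3-OE, against 0.189 CPM in Ctrl, against 154 and 96.4 CPM in macrophages. The 4 fibroblast markers, none at 0, summed to 3529 CPM in RSPO3-OE tumour cells, against 2344 CPM in Ctrl tumour cells, mostly from Dcn and Col3a1. Haemoglobin RNA stood at 0.137 CPM in RSPO3-OE macrophages, against 232 CPM in Ctrl macrophages. The part of these marker differences in the ratios below was not tested. Rspo3 had 12369 UMIs (107 CPM) in RSPO3-OE tumour cells and 0 UMIs in Ctrl tumour cells, where a count of 0 allows up to 0.0283 CPM (3 counts of the total). Tumour RNA was present in the T cell sums: Hmga2 was at 16.3 CPM in RSPO3-OE T cells and 58.8 CPM in Ctrl T cells, which is 4.63% and 21.8% of the tumour cell level. In macrophages it was at 6.77 and 4.33 CPM, or 1.93% and 1.60%.

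Within a library, the UMIs of all cells of a class were added up, and a ratio compares the CPM of 2 such sums on the log2 scale. With 1 library per group there is no replicate check and no p-value. Brackets and ranges called intervals are exact 95% intervals that cover counting error only, so a narrow interval does not speak to differences between tumours. A member was measured where it had at least 50 UMIs over both sums, and it was counted as past the fold at 1.5 times either way between libraries.

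The nuclear subunits together took 18397 CPM of RSPO3-OE tumour cells and 20379 CPM of Ctrl tumour cells, a log2 ratio of -0.15 (interval -0.15 to -0.14). The same sum was 18727 CPM in RSPO3-OE macrophages and 20006 CPM in Ctrl macrophages, a log2 ratio of -0.10 (-0.10 to -0.09). In T cells it was 21285 CPM in RSPO3-OE, against 21477 CPM in Ctrl, a log2 ratio of -0.01 with an interval that reached 0.00. All of these sums lay between 1.84% and 2.15% of the UMIs of a class, so the library and the class moved the total share of nuclear subunits little.

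Each complex had a lower sum in RSPO3-OE than in Ctrl tumour cells. Complex I, the NADH dehydrogenase, was at 5527 CPM in RSPO3-OE, against 6342 CPM in Ctrl (log2 -0.20). Complex III, the cytochrome bc1 complex, was at 1872 and 2054 CPM (log2 -0.13), and complex IV, cytochrome c oxidase, was at 4636 and 5128 CPM (log2 -0.15). Complex V, the ATP synthase, was at 6363 and 6855 CPM (log2 -0.11). In macrophages the 4 ratios spanned less, from -0.12 for complex IV to -0.07 for complex V. In T cells the 4 ratios lay from -0.02 to 0.00, and each interval covered 0. Over genes with at least 50 UMIs in each of both sums, the median log2 ratio was -0.10 in tumour cells and 0.04 in macrophages. With this median subtracted, the nuclear sum was at -0.05 in tumour cells and -0.14 in macrophages. Which of these 2 classes had the lower ratio thus depended on the scaling.

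**Figure D1:**
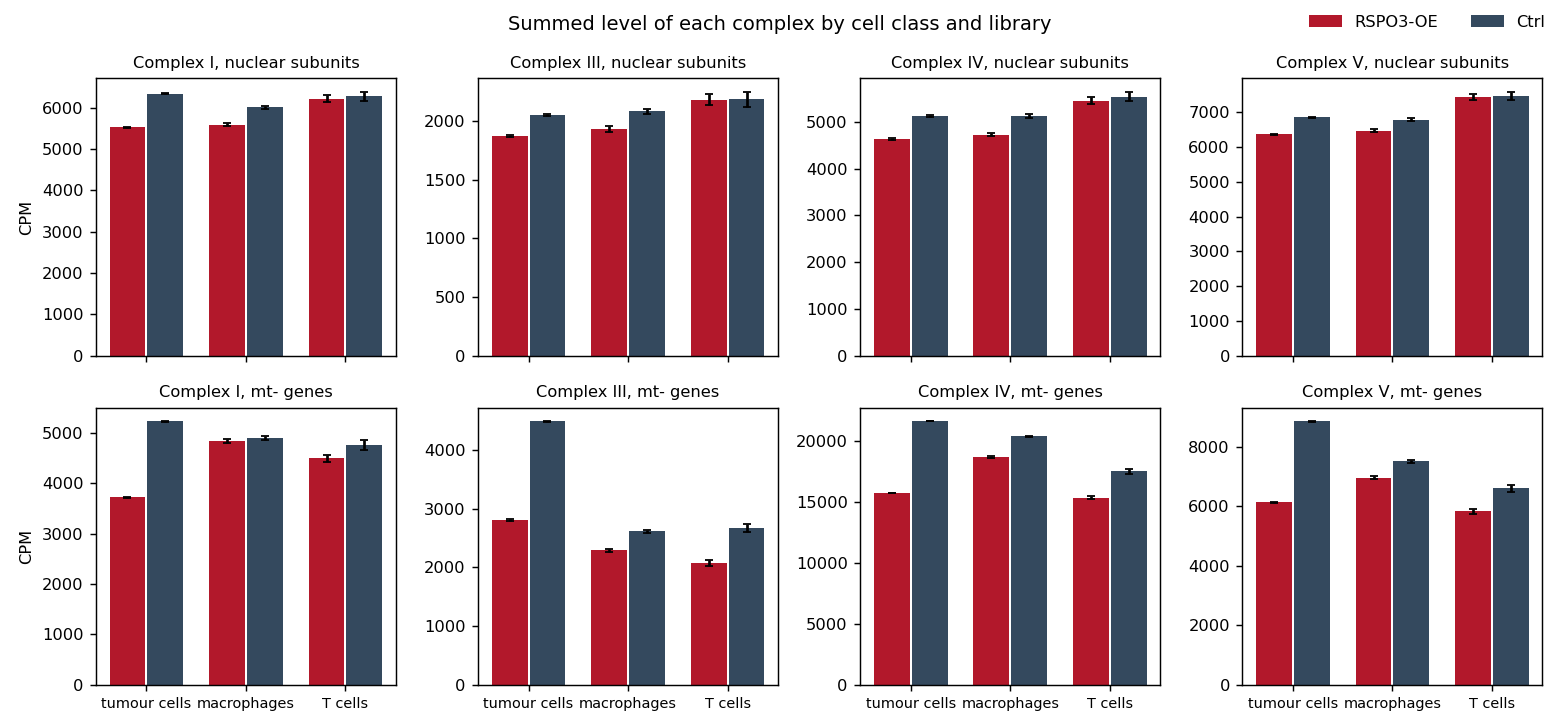
Summed level of each complex in CPM, nuclear subunits above and mt- genes below, for tumour cells, macrophages and T cells, with RSPO3-OE bars left of Ctrl bars and exact 95% Poisson intervals of the counts. The gap between the libraries is widest for the mt- genes of tumour cells, where complex III is at 2804 CPM in RSPO3-OE, against 4482 CPM in Ctrl.

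The sum of the 13 mt- genes stood further apart between the libraries than the nuclear sum in tumour cells and T cells, most of all in tumour cells. In macrophages the log2 ratios of the mt- and the nuclear sum were alike, at -0.11 and -0.10. The mt- genes summed to 28379 CPM in RSPO3-OE tumour cells, against 40182 CPM in Ctrl tumour cells. This is a log2 ratio of -0.50, and 13 of 13 were lower in RSPO3-OE. The lowest ratio was that of mt-Nd5, a proton-pumping subunit of complex I, at 124 CPM in RSPO3-OE, against 203 CPM in Ctrl (log2 -0.71). mt-Cytb, the cytochrome b of complex III, was at 2804 and 4482 CPM (log2 -0.68). mt-Nd4 was at 996 and 1596 CPM (log2 -0.68) and mt-Nd4l at 47.2 and 73.5 CPM (log2 -0.64). These 4 were past the 1.5-fold limit, and mt-Atp8 lay just inside it (log2 -0.58).

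The other mt- genes of tumour cells were less far apart. The catalytic core of complex IV was at 4232 CPM in RSPO3-OE, against 6004 CPM in Ctrl for mt-Co1 (log2 -0.50), with log2 ratios of -0.39 for mt-Co2 and -0.49 for mt-Co3. mt-Atp6, the proton channel subunit of complex V, was at 6118 and 8825 CPM (log2 -0.53). The remaining complex I genes had log2 ratios of -0.45 for mt-Nd2, -0.39 for mt-Nd1, -0.25 for mt-Nd6 and -0.11 for mt-Nd3. The mt- sum was 32752 CPM in RSPO3-OE macrophages and 35372 CPM in Ctrl macrophages (log2 -0.11), with single genes from -0.21 for mt-Nd5 to 0.07 for mt-Nd3. In T cells it was 27726 and 31528 CPM (log2 -0.19), with single genes from -0.37 for mt-Cytb to 0.33 for mt-Nd3. Without the T cells and macrophages that held an Hmga2 UMI, the ratio was -0.11 in T cells and -0.10 in macrophages. Leaving out cells over 10% mitochondrial UMIs gave -0.43 in tumour cells. Cells with neither a Ptprc nor an Hmga2 UMI that fell in no class, 650 in RSPO3-OE and 981 in Ctrl, had 30806 and 47334 CPM of mt- genes and 18198 and 20430 CPM of nuclear subunits.

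The nuclear-to-mitochondrial ratio of UMIs was 0.648 in RSPO3-OE tumour cells and 0.507 in Ctrl tumour cells. It was 0.572 in RSPO3-OE and 0.566 in Ctrl macrophages, and 0.768 in RSPO3-OE and 0.681 in Ctrl T cells. Complex I had more nuclear than mt- UMIs in each of the 6 sums, for example 1.49 times in RSPO3-OE tumour cells and 1.21 times in Ctrl tumour cells. Complex IV had far fewer, at 0.295 times in RSPO3-OE tumour cells and 0.237 times in Ctrl tumour cells.

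Gene by gene, 74 of the 78 members were measured in tumour cells and 62 of these 74 had a ratio below 0, against 60.9% of the 13032 genes measured. Their median log2 ratio was -0.16, beside -0.10 over all measured genes, so the members' centre lay close to that of the transcriptome. At least 1.5-fold lower were 6 of 74 members, against 14.4% of all measured genes: Atp5k, Atp5j2, Cox6a1, Ndufa4, Ndufb11 and Cox7b2. At least 1.5-fold higher was 1 of 74, Ndufa4l2, against 9.93%. Cox7b2 and Ndufa4l2 passed the minimum only through the library where they are high, so nothing is read from their place in these counts. The counting interval lay below 0 for 58, above 0 for 10 and over 0 for 6 of the 74. Interval counts, here and below, were made for members alone, so no share of all genes stands beside them. The 4 members not measured were Cox6b2, Cox7a1, Cox8b and Cox8c.

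Within complex I, 33 of the 37 members measured were below 0 in tumour cells, and the 7 core subunits that carry the flavin and the iron-sulfur clusters were all below 0, with a median of -0.42. Ndufv1, the NADH-binding flavoprotein subunit, was at 60.6 CPM in RSPO3-OE, against 84.8 CPM in Ctrl (log2 -0.49). The 30 accessory subunits had a median of -0.18. Ndufa4 was lowest among members of at least 100 CPM, at 216 CPM in RSPO3-OE, against 376 CPM in Ctrl (log2 -0.80, interval -0.83 to -0.78). Ndufb11, an X-linked membrane-arm subunit, was at 118 and 177 CPM (log2 -0.59). Ndufb9, another membrane-arm subunit, went the other way with 400 CPM in RSPO3-OE, against 307 CPM in Ctrl (log2 0.38).

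Complex III was the most even. Of its 8 members 7 were below 0, from -0.44 for Uqcrq, a small membrane subunit, at 243 CPM in RSPO3-OE, against 331 CPM in Ctrl, to 0.01 for Uqcrc2, a core protein, at 102 and 101 CPM. The Rieske iron-sulfur protein Uqcrfs1 was at 115 and 122 CPM (log2 -0.09), and the hinge protein Uqcrh at 403 and 415 CPM (log2 -0.04). None was past the fold.

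In complex IV, 10 of 12 measured members were below 0. Cox6a1, a regulatory subunit in its ubiquitous form, was at 201 CPM in RSPO3-OE, against 302 CPM in Ctrl (log2 -0.59). Cox8a, the smallest subunit, was at 667 and 935 CPM (log2 -0.49), and Cox5b, the zinc-binding subunit, at 379 and 465 CPM (log2 -0.29). Cox6c, which had the most UMIs of the complex IV members in tumour cells, was at 1150 and 1009 CPM (log2 0.19). Cox4i1, outside the symbol rule, was not ranked. The subunits of the enzyme thus did not share a ratio.

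Complex V had 12 of 17 members below 0, and its parts differed. The lipid-embedded dimer and membrane subunits summed to 1212 CPM in RSPO3-OE, against 1537 CPM in Ctrl (log2 -0.34). Among them Atp5k, subunit e, was at 123 and 222 CPM (log2 -0.85, interval -0.88 to -0.82), and Atp5j2, subunit f, at 344 and 538 CPM (log2 -0.64). The others were not alike, with Atp5md at 156 and 202 CPM (log2 -0.37), Atp5mpl at 194 and 196 CPM (log2 -0.01) and Atp5l at 393 and 379 CPM (log2 0.05). The c ring, which turns as protons pass and whose identical mature subunit is made from Atp5g1, Atp5g2 and Atp5g3, was higher in RSPO3-OE, at 1527 and 1389 CPM (log2 0.14). Atp5g2 led it at 891 and 740 CPM (log2 0.27), Atp5g3 was at 244 and 223 CPM (log2 0.13) and Atp5g1 at 392 and 426 CPM (log2 -0.12). In the F1 head, the catalytic Atp5b was at 755 and 764 CPM (log2 -0.02), Atp5a1 at 442 and 430 CPM (log2 0.04), and the small Atp5e at 446 and 580 CPM (log2 -0.38). The peripheral stalk ranged from -0.34 for Atp5o, the subunit that joins stalk and head, to 0.05 for Atp5f1.

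**Figure D2:**
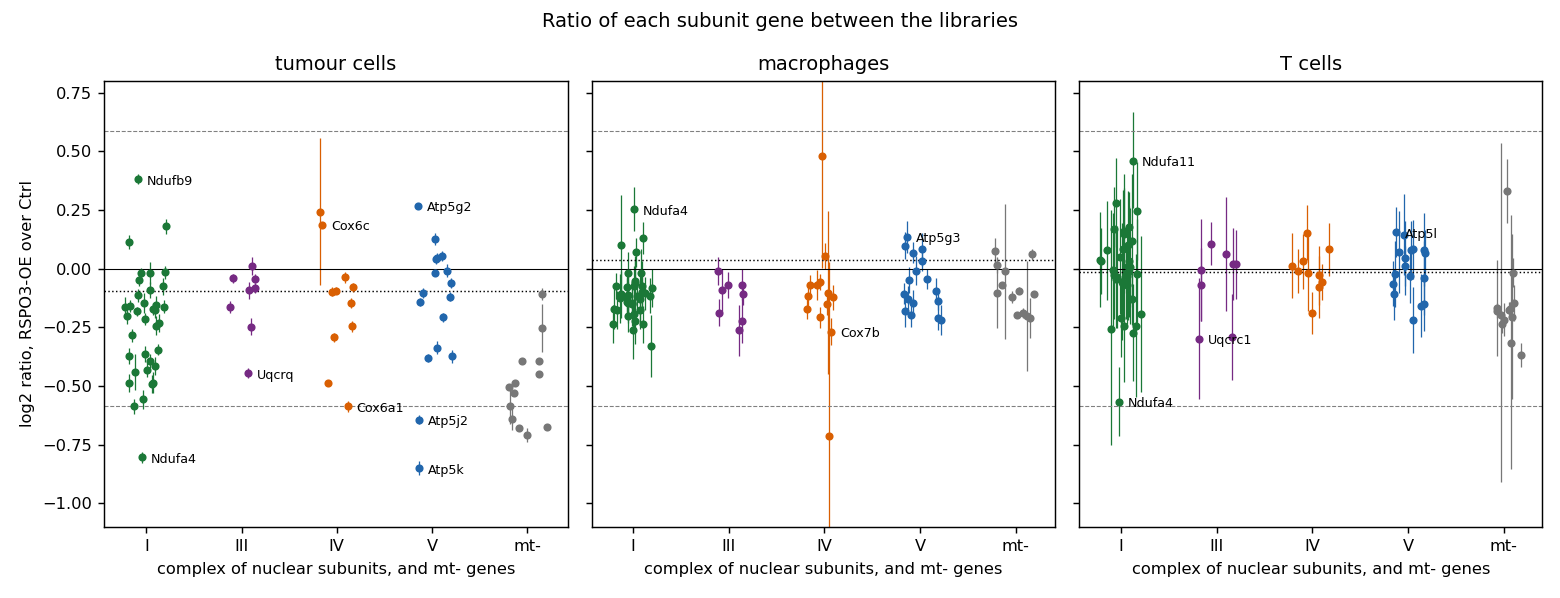
Log2 ratio of each measured member, RSPO3-OE over Ctrl, by complex, with the 13 mt- genes, in the 3 cell classes; vertical lines are exact 95% counting intervals, which the axis limits end for the members with the fewest UMIs, the dotted line is the median of all measured genes and dashed lines mark 1.5-fold. Of 74 measured members 72 are drawn for tumour cells, since Cox7b2 (log2 -3.86) and Ndufa4l2 (log2 2.22) lie outside the axis, and macrophages and T cells spread less around 0 apart from the members with few UMIs.

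The 2 members with the widest ratios were rare transcripts of tissue-restricted genes. Cox7b2, a testis form of Cox7b, had 19 UMIs in 13 of 4202 RSPO3-OE tumour cells and 253 UMIs in 144 of 4316 Ctrl tumour cells (log2 -3.86, interval -4.61 to -3.18), and it passed the minimum only through Ctrl. Ndufa4l2, a hypoxia-induced relative of Ndufa4, had 132 UMIs in 51 RSPO3-OE tumour cells and 26 UMIs in 17 Ctrl tumour cells (log2 2.22, interval 1.61 to 2.89), with 74 of the 132 UMIs in 10 cells. Both sat in few cells of either library, at 0.309% and 3.34% of tumour cells for Cox7b2 and 1.21% and 0.394% for Ndufa4l2. Macrophages with a Cox7b2 UMI numbered 0 of 1181 in RSPO3-OE and 1 of 1164 in Ctrl, and those with an Ndufa4l2 UMI 3 and 1.

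The ratios of tumour cells followed the place of the genes in the genome. For each member the median ratio of the other measured genes within 10 megabases on the same chromosome was taken. Over the 71 members with a mean of at least 10 CPM the member's ratio and the median of its neighbours had a Pearson r of 0.77 and a Spearman rho of 0.69 in tumour cells, against an r of 0.21 in macrophages and -0.05 in T cells. These points are genes of the same 2 libraries, which are not independent replicates, and neighbours lie in overlapping windows, so no p-value is given. Subtracting the neighbours' median brought the standard deviation of the 71 ratios to 0.151, against 0.236 without it, and left 0 of the 71 past 1.5-fold lower, against 5 without it. Ndufa4 lay just inside that limit, at -0.58. Subtracting the median of the whole chromosome left 1 of the 71 past it, Ndufa4 at -0.64.

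Chromosome 5 holds Atp5k, Atp5j2 and Cox6a1, each at least 1.5-fold lower in tumour cells, and its 846 other measured genes had a median log2 ratio of -0.55. Cox7b2, also on this chromosome, is not among the 71, and its ratio of -3.86 lay far below its neighbours at -0.55. Chromosome 15 lay on the other side, with a median of 0.24 over its 542 other measured genes, and it carries Ndufb9, Atp5g2 and Cox6c, the members with the highest ratios of their complexes among those of at least 100 CPM. Its other member, Ndufa6, had a ratio of -0.05 with neighbours at 0.17. Chromosome 17 had a median of -0.37 over other genes and of -0.35 over its 6 members, and chromosome 19 had -0.27 over other genes and -0.49 over its 5 members. In macrophages the chromosome medians ranged from -0.03 to 0.12, so the host cells of the same libraries did not show this spread.

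The 4 of the 71 members farthest from their neighbours were Ndufa4, Uqcrq, Cox7b and Ndufa8. Ndufa4 on chromosome 6 had a log2 ratio of -0.80 with neighbours at -0.22, and Uqcrq on chromosome 11 had -0.44 with neighbours at -0.04. Cox7b on the X chromosome had -0.25 with neighbours at 0.12. Ndufa8, an accessory subunit on chromosome 2, was at 173 CPM in RSPO3-OE, against 160 CPM in Ctrl (log2 0.11) with neighbours at -0.24. Atp5o and Atp5k came next, each with a difference from its neighbours of -0.29. Ndufb11, also on the X chromosome and at -0.59, was nearer to its neighbours, at -0.41, than to the median of the chromosome's other genes, at -0.01. The source of the regional ratios was not tested.

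**Figure D3:**
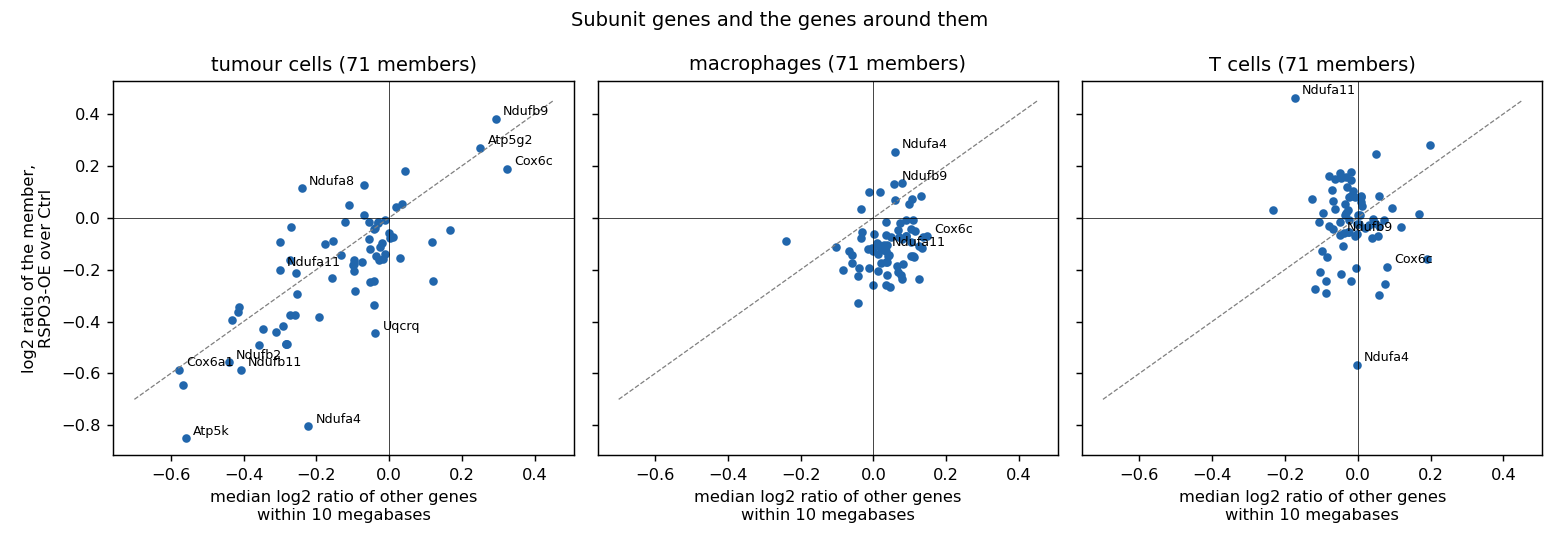
Log2 ratio of each member, RSPO3-OE over Ctrl (vertical), against the median log2 ratio of other measured genes within 10 megabases (horizontal), in the 3 cell classes, for the 71 members with a mean of at least 10 CPM; the dashed line marks equal values. In tumour cells the points run along the line from neighbours at -0.58 to neighbours at 0.32, and in macrophages and T cells they form a cloud.

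The promoters were read for a shared feature, because several factors are known to act on many of these genes together. RefSeq windows of GRCm38.p6, 250 bases before to 50 after the start, were matched for 64 of the 78 members, and 3 motifs were searched on both strands, spelled by their commonly cited letters. The YY1 site AAGATGGCG was in 7 of 64 members (10.9%) and in 1.64% of 27025 genes. The ETS site CCGGAAGT was in 5 members (7.81%) and 4.31% of genes, and the Sp1 site GGGCGGGG in 10 (15.6%) and 19.6%. A match is a stretch of letters and not a bound site.
Of the 7 members with the YY1 letters, 6 had them 22 to 35 bases past the start, and Atp5j had them at position -88 from it. The letters contain ATG, and whether the matches past the start lie at the beginning of the coding sequence was not tested. The share of members with a match is thus not read as shared regulation. The 4 past the start whose 10 bases on either side lie within the window are printed with the YY1 letters in capitals, to show the place that these members share.
Atp5j2: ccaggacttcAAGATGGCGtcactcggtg
Ndufc1: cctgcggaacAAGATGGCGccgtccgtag
Ndufs7: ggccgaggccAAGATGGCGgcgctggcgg
Ndufa9: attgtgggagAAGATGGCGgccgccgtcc
The Atp5j2 stretch is chr5:145191500-145191528 and the Ndufc1 stretch is chr3:51408915-51408943, both on the minus strand. The Ndufs7 stretch is chr10:80249463-80249491 on the plus strand and the Ndufa9 stretch is chr6:126849097-126849125 on the minus strand. With the same 9 letters near the start, Atp5j2 had a tumour ratio of -0.64, Ndufc1 of -0.28, Ndufs7 of -0.18 and Ndufa9 of -0.02. The 2 others past the start, Ndufs6 and Ndufs4, had -0.16 and 0.18, and Atp5j had -0.06. The 7 members with the match had a median of -0.16 in tumour cells, and the 54 measured members with a window but no match had -0.19.

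In macrophages 63 of the 74 measured members were below 0, against 45.4% of the 10654 genes measured, and the median was -0.11 beside 0.04 over all measured genes. The shifts were small and alike: the lower and upper quartiles of the members were -0.17 and -0.06. At least 1.5-fold lower was 1 of 74, against 5.11% of genes, and at least 1.5-fold higher were 0 of 74, against 8.46%. That 1 member was Cox6b2, with 25 UMIs in RSPO3-OE and 44 in Ctrl (log2 -0.71), and its interval from -1.48 to 0.03 covered 0. The counting interval lay below 0 for 50, above 0 for 8 and over 0 for 16 members.

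By complex, the lowest macrophage ratios among members of at least 100 CPM were those of Ndufb11, at 158 CPM in RSPO3-OE, against 186 CPM in Ctrl (log2 -0.24), and Uqcrc2, at 84.0 and 101 CPM (log2 -0.26). They were joined by the complex IV subunit Cox7b, at 303 and 365 CPM (log2 -0.27), and Atp5o, at 241 and 281 CPM (log2 -0.22). The highest were Ndufa4, at 132 and 110 CPM (log2 0.25), and Atp5g3, at 237 and 216 CPM (log2 0.14), then Cox7a2l, at 345 and 333 CPM (log2 0.05), and Uqcr10, at 281 and 283 CPM (log2 -0.01). Ndufa4 thus had a ratio above 0 in macrophages and below 0 in tumour cells. In RSPO3-OE macrophages 176 of its 1924 UMIs came from 10 of 1181 cells. Without macrophages that held an Hmga2 UMI its ratio was 0.20.

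In T cells the members were balanced. Of 71 measured members 37 were below 0, against 51.8% of the 7636 genes measured, and both medians were -0.01. None of the 71 was at least 1.5-fold lower, against 9.87% of genes, or at least 1.5-fold higher, against 7.5%. The counting interval covered 0 for 52 of 71, as the T cell sums were the shallowest. Ndufa4 had the lowest ratio, at 243 CPM in RSPO3-OE, against 360 CPM in Ctrl (log2 -0.57, interval -0.71 to -0.42), and it was -0.41 without T cells that held an Hmga2 UMI. Ndufa11, an accessory membrane subunit, had the highest, at 198 and 144 CPM (log2 0.46, interval 0.26 to 0.67).

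The other named members of T cells were nearer to 0. Cox6c was at 755 CPM in RSPO3-OE, against 860 CPM in Ctrl (log2 -0.19). Uqcrc1, a core protein of complex III, was at 88.8 and 109 CPM (log2 -0.30), and Atp5g1 at 297 and 345 CPM (log2 -0.22). On the other side were Atp5l, subunit g of complex V, at 599 and 538 CPM (log2 0.16), Cox5a, the subunit that binds thyroid hormone metabolites, at 507 and 456 CPM (log2 0.15), and Uqcrh, at 820 and 761 CPM (log2 0.11). Each of these 6 intervals left out 0 in the full sums. Without the T cells that held an Hmga2 UMI, 18 of 406 and 18 of 203, Cox6c was at 0.02 and Uqcrh at -0.02, so both directions rested on those cells. In the same sums Atp5l was at 0.06, Cox5a at 0.08, Atp5g1 at -0.15 and Uqcrc1 at -0.26, and the intervals of all 6 then covered 0.

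Subunits that exist in tissue forms were present almost entirely as the ubiquitous form. Cox8b and Cox8c, the muscle and testis forms of Cox8, had 0 UMIs in each of the 6 sums. By the limit of 3 counts this allows up to 0.0260 CPM in RSPO3-OE tumour cells, against 0.0283 CPM in those of Ctrl, 0.205 and 0.191 CPM in macrophages, and 0.888 and 1.51 CPM in T cells. Cox7a1, the heart and muscle form, had 131 UMIs in 112 RSPO3-OE macrophages and 151 UMIs in 126 Ctrl macrophages, or 8.96 and 9.61 CPM. In tumour cells it had 0.147 and 0.236 CPM, from 17 and 25 UMIs. C1qa stood in tumour cells at 0.140% and 0.130% of its macrophage level. It is part of the macrophage rule, and cells that met both rules were left out. Its share was thus limited by the rules and is no measure for Cox7a1. The source of the Cox7a1 UMIs in tumour cells was not tested. Cox6a2, the muscle form of Cox6a, was at 5.95 CPM in RSPO3-OE, against 4.27 CPM in Ctrl macrophages, and at 1.71 and 1.44 CPM in tumour cells.

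Cox4i2, the lung and hypoxia form of Cox4 outside the symbol rule, had 241 UMIs in 158 RSPO3-OE macrophages and 173 UMIs in 119 Ctrl macrophages, or 16.5 and 11.0 CPM. It had 23 UMIs in RSPO3-OE and 1 UMI in Ctrl tumour cells, and 0 in both T cell sums. The ubiquitous Cox4i1 was at 891 and 973 CPM in macrophages and at 1140 and 1184 CPM in tumour cells. In tumour cells the c ring genes were split with Atp5g2 ahead of Atp5g1 and Atp5g3 in CPM in each library.

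Between cell classes the complexes as a whole were nearly level while single subunits were not. The nuclear sum of tumour cells over macrophages had a log2 ratio of -0.03 in RSPO3-OE and 0.03 in Ctrl. With mt- and ribosomal protein genes out of the total these were 0.12 and 0.19, and with median-of-ratios scaling -0.13 and -0.25, so neither direction held under each scaling. Over T cells the ratio was -0.21 in RSPO3-OE and -0.08 in Ctrl, and it stayed below 0 under each alternative. The median of all genes measured in these comparisons was 0.27 and 0.42 over macrophages and 0.18 and 0.21 over T cells. The tumour sums are much deeper, so a minimum over both sums lets in genes seen in tumour cells alone and can raise this median and the shares of genes called higher below. Over genes with at least 50 UMIs in each of both sums the medians were 0.10 and 0.28 over macrophages and -0.04 and 0.08 over T cells.

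Of 73 members measured in both libraries, 36 were lower and 28 higher in tumour cells than in macrophages in both libraries. The same signs were not counted over all genes, so the members are not set apart by them. At least 2-fold lower in both libraries were 2 of 73, against 14.5% of 12453 genes, and at least 2-fold higher 0 of 73, against 24.3%. The 2 were Cox7a1 and Cox6a2. Cox7a1, with 17 and 25 UMIs in tumour cells, passed the minimum only through macrophages. Nothing is read from its place in this count or in the count of members lower at 1.5-fold. At 1.5-fold in both libraries 6 of 73 were lower, against 19.5% of genes, and 2 of 73 higher, against 35.2%. The 4 further members lower at 1.5-fold were Cox5a, Ndufv3, Ndufa3 and Ndufs6, and the 2 higher were Cox6c and Ndufa4.

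Cox6c was at 1150 CPM in RSPO3-OE tumour cells and 551 CPM in RSPO3-OE macrophages (log2 1.06), and at 1009 CPM in Ctrl tumour cells and 579 CPM in Ctrl macrophages (log2 0.80). Ndufa4 had 216 against 132 CPM in RSPO3-OE (log2 0.71) and 376 against 110 CPM in Ctrl (log2 1.77), so its class difference depended most on the library. Cox5a was lower in tumour cells, at 299 against 503 CPM in RSPO3-OE (log2 -0.75) and 331 against 580 CPM in Ctrl (log2 -0.81). Ndufv3, an accessory flavoprotein-arm subunit, was at 105 against 215 CPM in RSPO3-OE (log2 -1.03) and 135 against 247 CPM in Ctrl (log2 -0.87).

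Complex V split in the same way. Its catalytic Atp5b was higher in tumour cells, at 755 against 509 CPM in RSPO3-OE (log2 0.57) and 764 against 497 CPM in Ctrl (log2 0.62). Its small membrane subunit Atp5mpl was lower, at 194 against 291 CPM in RSPO3-OE and 196 against 292 CPM in Ctrl (log2 -0.58 in both). In complex III the named members were nearer to 0, with Uqcr10 at log2 0.27 in RSPO3-OE and 0.35 in Ctrl and Uqcrq at -0.46 and -0.09.

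**Figure D4:**
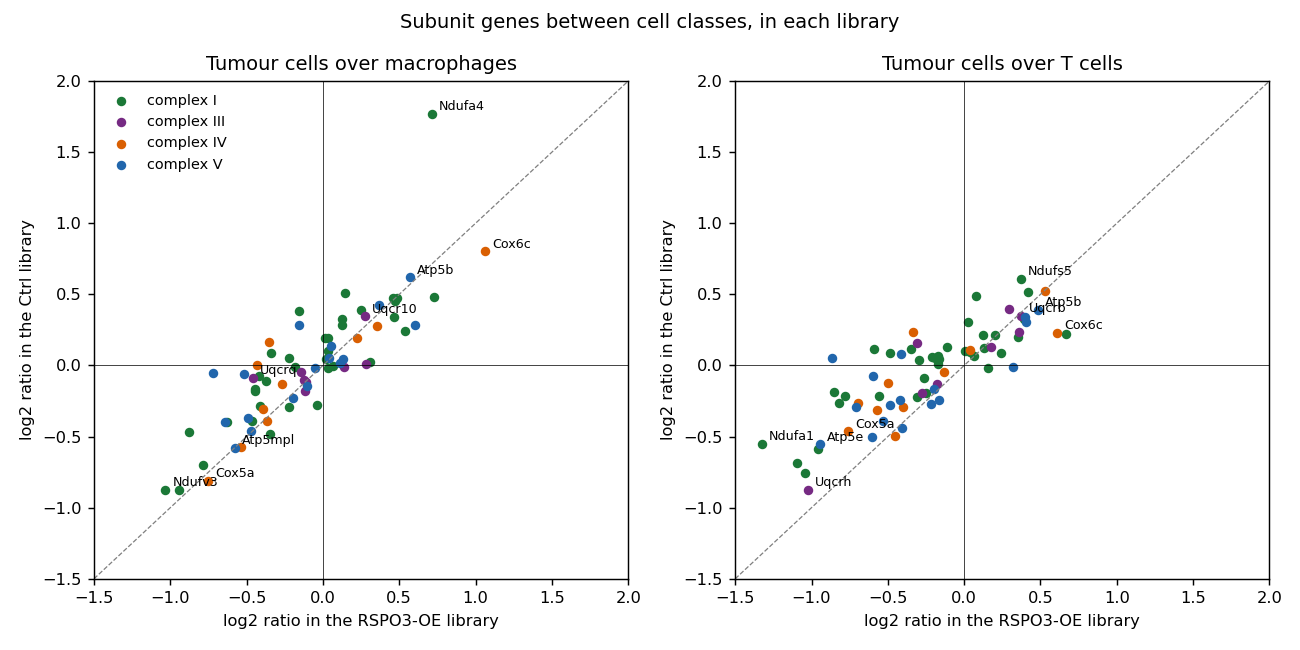
Log2 ratio of each member, tumour cells over macrophages (left, 71 of 73 measured members drawn, without Cox7a1 and Cox6a2) and tumour cells over T cells (right, 72 members), in the RSPO3-OE library (horizontal) and the Ctrl library (vertical), coloured by complex; the dashed line marks equal values. Most points lie near the line, and Ndufa4 over macrophages stands off it, at 0.71 in RSPO3-OE and 1.77 in Ctrl.

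Against T cells, 32 of 72 measured members were lower and 24 higher in tumour cells in both libraries, again without a count over all genes. None was at least 2-fold lower in both libraries, against 9.11% of 12050 genes, or 2-fold higher, against 17.2%. At 1.5-fold in both libraries 3 of 72 were lower, against 14.5%, and 0 higher, against 27.0%. The 3 were Uqcrh, Ndufa3 and Ndufs6. Uqcrh was at 403 CPM in RSPO3-OE tumour cells and 820 CPM in RSPO3-OE T cells (log2 -1.02), and at 415 and 761 CPM in Ctrl (log2 -0.88). Ndufa1, an X-linked complex I subunit, was at 82.5 against 207 CPM in RSPO3-OE (log2 -1.33) and 116 against 170 CPM in Ctrl (log2 -0.55).

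Other members on the low side were Atp5e, at log2 -0.95 in RSPO3-OE and -0.55 in Ctrl, and Cox5a, at -0.76 and -0.46. On the high side were Ndufs5, an accessory complex I subunit, at 0.37 and 0.61, Uqcrb, a complex III subunit at the quinone site, at 0.37 and 0.35, Cox6c at 0.61 and 0.23, and Atp5b at 0.48 and 0.39. Atp5b and Cox6c were thus higher, and Cox5a lower, in tumour cells than in either host class, in both libraries. The tumour RNA in T cells (Hmga2 at 4.63% of the tumour level in RSPO3-OE and 21.8% in Ctrl) differed between the libraries, and its part in these ratios was not tested.

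The members with the most UMIs were largely shared by the classes, as counts of tags that are not levels per length. Uqcrh led complex III in the 3 classes. Ndufa13, a subunit also known as GRIM-19, led complex I in tumour cells, at 413 CPM in RSPO3-OE, against 468 CPM in Ctrl, and in T cells, at 490 and 535 CPM, while Ndufa2 led it in macrophages, at 330 and 347 CPM. Cox8a led complex IV in macrophages, at 898 and 934 CPM, and in T cells, at 1082 and 1124 CPM. Atp5e led complex V in the same classes, at 696 and 766 CPM in macrophages and 858 and 852 CPM in T cells.

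Cell by cell the nuclear share was narrow. After thinning to 2000 UMIs a cell, which dropped at most 10 cells of a sum, the median share of nuclear subunit UMIs was 1.80% in RSPO3-OE and 1.95% in Ctrl tumour cells. It was 1.85% and 1.90% in macrophages and 2.05% and 2.08% in T cells. The SD over tumour cells was 0.435 percentage points in RSPO3-OE and 0.523 in Ctrl, of which counting alone gives 0.298 and 0.309. The mt- share spread further, with a median of 2.85% and an upper 5% from 4.80% in RSPO3-OE tumour cells, against 3.95% and 10.8% in Ctrl. Nuclear and mt- shares had an r of -0.17 over 4200 RSPO3-OE tumour cells and -0.35 over 4313 Ctrl tumour cells, from shares of the same totals.

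Tumour cells with at least 6% mt- UMIs numbered 44 in RSPO3-OE (1.05%) and 894 in Ctrl (20.7%), and their median depth was 11174 and 11096 UMIs. Nuclear subunits were at 15101 CPM in these cells of RSPO3-OE and 17660 CPM in those of Ctrl, below the 18515 and 20965 CPM of cells with 2 to 4% mt- UMIs. Within each range of mt- share the RSPO3-OE level stayed below that of Ctrl: the log2 ratio was -0.10 at 0 to 2%, -0.18 at 2 to 4%, -0.26 at 4 to 6% and -0.23 at 6 to 20%. With mt- UMIs taken out of the total the same 4 ratios were -0.10, -0.18, -0.26 and -0.22. With the full total the ratios were -0.01, -0.09, -0.09 and -0.30 in macrophages, the last from 43 and 48 cells, and in T cells -0.03, 0.00, -0.07 and -0.39, the last from 10 and 5 cells.

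**Figure D5:**
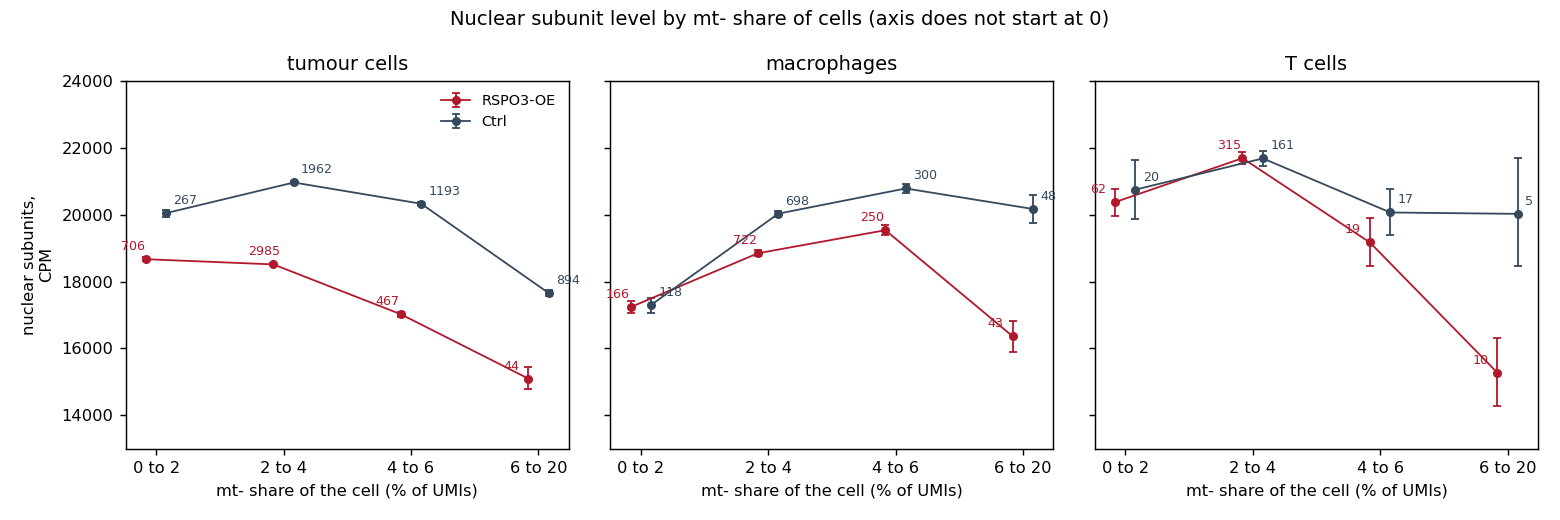
Summed nuclear subunits in CPM (vertical, on an axis that does not start at 0) in cells grouped by their mt- share (horizontal), for RSPO3-OE and Ctrl in the 3 classes, with exact 95% Poisson intervals and the number of cells beside each point. RSPO3-OE lies below Ctrl in each group of tumour cells, and levels are lowest where the mt- share is at least 6% in tumour cells.

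Dividing cells had slightly more. Tumour cells with at least 2 UMIs of Mki67 and Top2a had 18755 CPM of nuclear subunits, against 17350 CPM in those with none in RSPO3-OE, and 20720 against 19182 CPM in Ctrl. In macrophages the values were 19518 against 18319 CPM in RSPO3-OE and 21273 against 19202 CPM in Ctrl, and in T cells 21824 against 20720 CPM and 21779 against 21156 CPM. Depth differed along with it, with medians of 31516 and 17967 UMIs in RSPO3-OE tumour cells. Ndufa4 was at 231 against 174 CPM in RSPO3-OE tumour cells and 411 against 264 CPM in Ctrl tumour cells. Within the RSPO3-OE library the 347 tumour cells with at least 10 Rspo3 UMIs had 18007 CPM, against 18463 CPM in the 3271 with none.

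Genes around the complexes were taken from fixed lists, and in tumour cells the shares of all measured genes to read them against are 14.4% at least 1.5-fold lower and 9.93% at least 1.5-fold higher. Complex II, with 4 genes, had a median of 0.01, from -0.16 for Sdhc to 0.08 for Sdha. Assembly factors had a median of -0.20 with 30 of 38 below 0 and 5 at least 1.5-fold lower, from Ndufaf3 at 7.64 CPM in RSPO3-OE, against 12.6 CPM in Ctrl (log2 -0.72), to Cox14 at a log2 ratio of 0.30. The 5 measured subunits outside the symbol rule had a median of -0.11, from -0.15 for Ndufb1-ps to 0.08 for Cyc1, the cytochrome c1 of complex III. The citrate cycle, which feeds electrons to the chain, had a median of -0.09 with 1 of 16 lower past the fold, Mdh2 at 173 and 292 CPM (log2 -0.75).

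Regulators of mitochondrial gene expression had a median of -0.28, with 5 of 17 lower, against 14.4% of all genes, and 1 higher past the fold, against 9.93%. They ran from Tfb1m, the mitochondrial rRNA methyltransferase, at 0.702 CPM in RSPO3-OE, against 1.73 CPM in Ctrl (log2 -1.30), to Myc at 76.4 and 50.5 CPM (log2 0.60). Mitochondrial ribosomal proteins, which translate the mt- transcripts, had 71 of 78 below 0 with a median of -0.19 and 4 lower past the fold, from Mrpl44 at -0.68 to Mrpl17 at 0.39. Cytosolic ribosomal proteins had a median of -0.01, with Rpl6 lowest at 2004 CPM in RSPO3-OE, against 3127 CPM in Ctrl (log2 -0.64). The highest was Rpl39l, with 5219 UMIs in RSPO3-OE and 7 UMIs in Ctrl tumour cells (log2 9.42, interval 8.38 to 10.73), and it passed the minimum only through RSPO3-OE. Glycolysis genes had a median of -0.26 with 0 of 15 lower and 1 higher past the fold, from Pgam1 at 348 and 499 CPM (log2 -0.52) to Pfkp at 49.1 and 29.6 CPM (log2 0.73).

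Immediate early and heat shock genes, which are known to respond to the handling of cells, were read in the same way. Immediate early genes had a median of 1.14 in tumour cells with 8 of 10 at least 1.5-fold higher, against 9.93% of all genes, and medians of 0.66 in macrophages and -0.13 in T cells. In tumour cells they ran from Jund at -0.09 to Zfp36 at 1.38. Heat shock genes had a median of -0.56 in tumour cells, -0.20 in macrophages and -0.64 in T cells. In tumour cells 4 of 8 were lower and 1 higher past the fold, from Hspa1b at 10.2 CPM in RSPO3-OE, against 82.6 CPM in Ctrl (log2 -3.01), to Dnajb1 at 381 and 249 CPM (log2 0.61). The part of these in the nuclear and mt- ratios was not tested.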

How the data were processed

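Droplet single-cell RNA libraries of 2 tumours, RSPO3-OE and Ctrl, were analysed from raw UMI counts per gene and barcode, made by the authors on the mm10 genome with Cell Ranger, version 3.0.1 per the submitters' processing notes and 3.1.0 per the file headers. The labels name a 3′ kit, so 1 tag counts per molecule. Barcodes were already called as cells, and doublets were called here with Scrublet in scanpy 1.11.5 (expected rate 0.05), which marked 171 (2.39%) and 95 (1.36%), while 150 and 311 failed the gene or mitochondrial limits. Counts were summed per library and class and scaled to 1000000 UMIs (CPM). Ratios have exact binomial and levels exact Poisson 95% intervals, which cover counting error only. Recovery was tested on simulated data: 50 tumour genes set to a log2 change of -1 came out at a median of -0.99. The simulated counts held counting error only, as the intervals assume. The simulation thus checks the calculation and not the spread between cells or tumours.

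Members, lists and class rules were chosen with earlier results of these data known. Members named in the text are the highest and lowest ratio per complex and comparison among those with at least 50 UMIs and 100 CPM, the tissue forms, the mt- genes, the member with most UMIs per complex and class, and the extremes of each list, apart from items that are not reported here. Ndufv1, Ndufa8, Uqcrfs1, Cox8a, Cox5b, Atp5a1, Atp5f1, Atp5md, the members with the YY1 letters and the members at 1.5-fold between classes that this rule does not cover were added after their values were seen. The tables hold 1 library per group, so no test across libraries was made. Positions are from GENCODE vM21, and promoter windows from RefSeq GRCm38.p6. The motif letters came from general knowledge and not from a file, and the motifs and the printed stretches were chosen after the members' values were seen. Alternatives were other scalings, denominators, class limits and cell sets, and 2 more were added after seeing the data.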

Additional observations from a re-analysis of the deposited data

Results flagged for a closer look

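Ndufa4 had a log2 ratio of RSPO3-OE over Ctrl of -0.80 in tumour cells and 0.25 in macrophages, past the counting intervals on opposite sides of 0. The difference between the classes was not tested, as each group has 1 library.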

How the results depend on the processing

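No paired analysis was possible because each group has 1 library, and for the same reason no replicate could be left out. Values are log2 ratios. RSPO3-OE over Ctrl is given for the nuclear sum in tumour cells (-0.15), macrophages (-0.10) and T cells (-0.01), then the mt- sum in the same classes (-0.50, -0.11 and -0.19). Median-of-ratios scaling gave -0.05, -0.14, 0.00, -0.40, -0.15 and -0.17. Thinning cells to 2000 UMIs gave -0.11, -0.07, 0.00, -0.69, -0.09 and -0.12. The mean of the cells' own CPM gave -0.11, -0.09, -0.03, -0.69, -0.07 and -0.14. Keeping doublets gave -0.15, -0.11, -0.03, -0.50, -0.13 and -0.26. A limit of 10% mitochondrial UMIs gave -0.16, -0.09, -0.01, -0.43, -0.12 and -0.19. Leaving mt- genes out of the total gave -0.17, -0.10, -0.02, -0.52, -0.11 and -0.19, and leaving out ribosomal protein genes too gave -0.19, -0.12, -0.04, -0.54, -0.14 and -0.22. Stricter class markers gave -0.15, -0.10, -0.01, -0.48, -0.10 and -0.18. Without dividing cells the values were -0.14, -0.07, -0.03, -0.50, -0.09 and -0.22. Without host cells that held an Hmga2 UMI, an alternative chosen after seeing the data, they were -0.15, -0.10, -0.01, -0.50, -0.10 and -0.11.

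The nuclear sum of tumour cells over macrophages in RSPO3-OE (-0.03) and Ctrl (0.03), then over T cells in RSPO3-OE (-0.21) and Ctrl (-0.08), was -0.13, -0.25, -0.17 and -0.16 with median-of-ratios scaling, which subtracts the median over genes with at least 50 UMIs in each of both sums, here 0.10, 0.28, -0.04 and 0.08. It was -0.04, 0.00, -0.21 and -0.11 with thinning, -0.03, -0.01, -0.19 and -0.11 by the mean of cells, -0.02, 0.02, -0.18 and -0.06 with doublets and -0.03, 0.04, -0.21 and -0.07 with the 10% limit. It was -0.03, 0.03, -0.21 and -0.06 without mt- genes, 0.12, 0.19, -0.30 and -0.15 also without ribosomal protein genes, and -0.03, 0.02, -0.21 and -0.08 with stricter markers. Without dividing cells it was -0.08, 0.00, -0.26 and -0.14, and without Hmga2-positive host cells -0.03, 0.02, -0.22 and -0.08. The cause of these shifts was not tested.

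Members at least 1.5-fold lower in tumour cells numbered 6, against 3 with median-of-ratios scaling, 7 with a minimum of 10 UMIs or none, and 1 (Cox7b2) after subtracting the neighbours' median, which was chosen after seeing the data. Members at least 1.5-fold higher in tumour cells numbered 1, against 2 with either lower minimum. With no minimum 1 was higher in macrophages and 1 lower in T cells, against 0 and 0, and after subtracting neighbours 1 (Ndufa11) was higher in T cells, against 0. Of 680 values of single complexes and members under an alternative, 654 kept their sign, and 242 lay outside the counting interval of the main value. None of the results past 1.5-fold in the main values changed sign, and only those could count as reversed. The T cell sums, with the fewest UMIs of the 3 classes, limit what can be seen for single members there.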
